A study of Mus musculus with 3 samples.

Results

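The genes described here are 10 members of the inhibitory receptor system of macrophages, chosen by symbol from 55536 annotated genes. They comprise 7 receptors (Sirpa, Pirb, Lilrb4a, Siglece, Cd300a, Cd300lf and Cd200r1) and 3 phosphatases that many inhibitory receptors are known to recruit (Ptpn6, Ptpn11 and Inpp5d). All 10 were found in every table. The cells were C57BL/6J bone-marrow-derived macrophages, which are primary cells grown from bone marrow. They were given 100 ng/ml Lipid A, the endotoxin component sensed by Toll-like receptor 4, for 12 h, then a 12 h washout, then 100 ng/ml Lipid A for another 10 min. Cytosolic RNA was sequenced after removal of ribosomal RNA in 3 libraries, called replicates 1, 2 and 3, which form a single group and share 1 donor identifier. No untreated or singly treated cells were analysed here, so every value is a level in restimulated cells and none is a response to Lipid A.

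Inhibitory receptors of this kind carry an ITIM, an immunoreceptor tyrosine-based inhibitory motif, in the tail that lies inside the cell. When the receptor binds its ligand, a Src-family kinase phosphorylates the tyrosine of the motif, and the phosphorylated motif is bound by the SH2 domains of the tyrosine phosphatases SHP-1 (Ptpn6) and SHP-2 (Ptpn11) or of the inositol phosphatase SHIP-1 (Inpp5d). These enzymes then remove phosphates from signalling proteins or lipids near the receptor. In macrophages the system is known for restraining phagocytosis and inflammatory signalling, including signalling through Toll-like receptors.

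The coding sequences of 6 of the 7 receptors held at least 1 ITIM after the hydrophobic segment that marks the membrane, and that of Cd200r1 held none. An ITIM was searched as isoleucine, valine, leucine or serine, then any residue, tyrosine, any 2 residues, and isoleucine, valine or leucine, in coding sequences translated from GENCODE transcripts. Pirb and Sirpa had 3 such matches after the membrane segment, Lilrb4a, Cd300a and Cd300lf had 2, and Siglece had 1. The related switch motif (ITSM: threonine, any residue, tyrosine, any 2 residues, valine or isoleucine) occurred once each in the tails of Siglece, Sirpa and Cd300lf. Cd200r1 instead held an NPXY, asparagine and proline followed by any residue and tyrosine, which is the kind of site known to bind the docking proteins Dok1 and Dok2. The name ITIM receptor therefore does not describe Cd200r1 in these sequences. Matches of this length are common. Of 21500 genes with a complete coding sequence, 49.0% held an ITIM match anywhere, 9.42% held one after a membrane segment, 2.44% held 2 or more there and 3.60% held an NPXY. Of the 7543 of these genes with a membrane segment, 26.8% held an ITIM match after it and 6.96% held 2 or more. Matches before the membrane segment, such as those at tyrosine 109 of Pirb and tyrosine 10 of Lilrb4a, lie outside the tail.

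The bases that encode each tail motif are shown because they define the receptors, with the tyrosine codon in capitals and residues counted from the first methionine (GENCODE M21 transcripts, mm10).
Pirb tyrosine 713 (ITIM): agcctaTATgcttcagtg
Pirb tyrosine 794 (ITIM): gtgaccTATgcccagctg
Pirb tyrosine 824 (ITIM): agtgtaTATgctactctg
Lilrb4a tyrosine 300 (ITIM): attgtcTACgcccaggta
Lilrb4a tyrosine 322 (ITIM): gtaaccTATgcccagttg
Sirpa tyrosine 436 (ITIM): atcacaTACgcagacctg
Sirpa tyrosine 460 (ITSM): acagaaTATgcaagcatt
Sirpa tyrosine 477 (ITIM): ctcaccTATgctgacctg
Sirpa tyrosine 501 (ITIM): tcagagTATgctagtgtc
Siglece tyrosine 432 (ITIM): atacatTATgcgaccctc
Siglece tyrosine 455 (ITSM): acggagTACtcagagata
Cd300a tyrosine 262 (ITIM): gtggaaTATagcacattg
Cd300a tyrosine 274 (ITIM): cttcacTATtcatccgtg
Cd300lf tyrosine 234 (ITIM): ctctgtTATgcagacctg
Cd300lf tyrosine 282 (ITIM): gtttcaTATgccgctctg
Cd300lf tyrosine 318 (ITSM): acagagTACagcagcatc
Cd200r1 tyrosine 297 (NPXY): aatccactcTAT

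**Figure D1:**
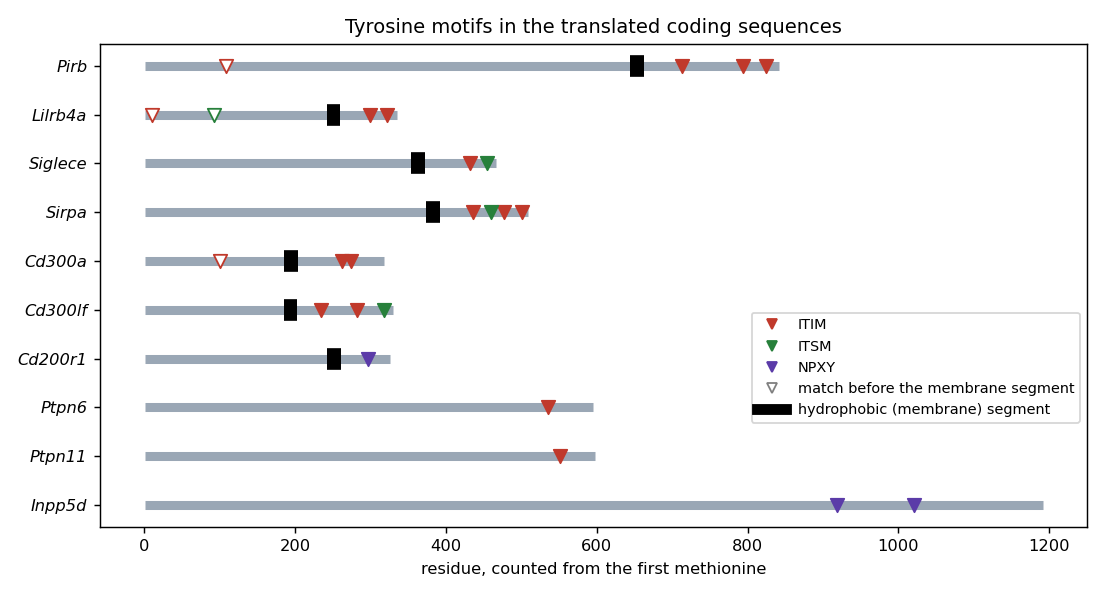
Tyrosine motifs in the protein of each receptor and phosphatase, drawn by residue number along a bar of the protein's length, with filled triangles for matches in the tail or in a protein without a membrane segment and open triangles for matches before the membrane segment. Pirb and Sirpa carry 3 ITIMs in the tail, and Cd200r1 carries an NPXY and no ITIM.

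Among the phosphatases, Ptpn6 and Ptpn11 each held 1 ITIM match close to the C-terminal end, at tyrosine 536 of 595 residues and tyrosine 551 of 597. Inpp5d held no ITIM match and 2 NPXY sites, at tyrosines 918 and 1021 of 1191 residues.

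Sirpa was by far the most abundant receptor gene. It encodes SIRP-alpha, the receptor for the "do not eat me" ligand CD47, and lies on chromosome 2 (chr2:129592835-129632228, mm10). Its level was 749, 663 and 628 TPM in replicates 1, 2 and 3, a mean of 680.0 ± 62.1 TPM (SD, n = 3), where TPM is a transcript abundance per length scaled to a fixed total per library. All 3 libraries lay above every library of the next gene, and Sirpa ranked 37 among 22015 nuclear-encoded protein-coding genes. It made up 61.2% ± 4.48 of the summed TPM of the 7 receptors.

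The paired receptors of the leukocyte immunoglobulin-like family followed. Lilrb4a (ENSMUSG00000112148.1, chr10:51490956-51496611), also known as gp49B, stood at 235, 144 and 126 TPM in replicates 1, 2 and 3, a mean of 168 ± 58.1 TPM (n = 3). Pirb (ENSMUSG00000058818.13, chr7:3711409-3720391), which encodes a receptor known to bind class I histocompatibility molecules, stood at 224, 135 and 141 TPM, a mean of 167 ± 49.7 TPM. Replicate 1 was the highest library for both genes, and the ranges of the genes overlapped, so their order was not separated by these libraries. The level of Lilrb4a depends on how reads were divided with an overlapping entry, described further on.

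The CD300 receptors, which are known to bind lipids, and the receptor for CD200 were expressed at lower levels. Cd300lf (chr11:115116214-115133992) had 48.9, 32.1 and 23.6 TPM in replicates 1, 2 and 3 (34.9 ± 12.9 TPM, n = 3). Cd200r1 (chr16:44765736-44794978), the receptor for CD200, had 34.7, 31.95 and 28.8 TPM (31.8 ± 2.95 TPM). Cd300lf varied widely enough to enclose every library of Cd200r1, so these neighbours were not separated. Cd300a (chr11:114890041-114904654) had 25.97, 28.01 and 20.6 TPM (24.8 ± 3.85 TPM). Siglece (chr7:43651070-43660161), which encodes a receptor for sialic acid, was the lowest receptor at 18.5, 7.63 and 12.4 TPM (12.8 ± 5.45 TPM). Cd200r1 and Cd300a did not overlap here, with 28.8 against 28.01 TPM at the nearest, nor did Cd300a and Siglece. In a second quantification by the authors, described further on, Cd300a lay above Cd200r1 in replicate 2, at 11.9 against 11.3 TPM.

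Of the phosphatases, Ptpn6 was the highest and Ptpn11 the lowest in every library. Ptpn6 (chr6:124720707-124738714), which encodes SHP-1, stood at 139.8, 103 and 122 TPM in replicates 1, 2 and 3, a mean of 121.5 ± 18.4 TPM (n = 3). Inpp5d (chr1:87620312-87720507) stood at 59.2, 41.9 and 49.5 TPM (50.2 ± 8.67 TPM). Ptpn11 (chr5:121130533-121191397), whose product SHP-2 also has signal-promoting roles in many cells, stood at 10.99, 10.04 and 9.99 TPM (10.3 ± 0.563 TPM). The ranges of the 3 genes did not overlap. Ptpn6 made up 66.8% ± 0.357 of their summed TPM, Inpp5d 27.5% ± 0.604 and Ptpn11 5.74% ± 0.653. The shares of Ptpn6 and Inpp5d moved little between libraries even though their TPM did. The share of Ptpn11 was 5.23%, 6.48% and 5.51% in replicates 1, 2 and 3, and moved more than its TPM.

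**Figure D2:**
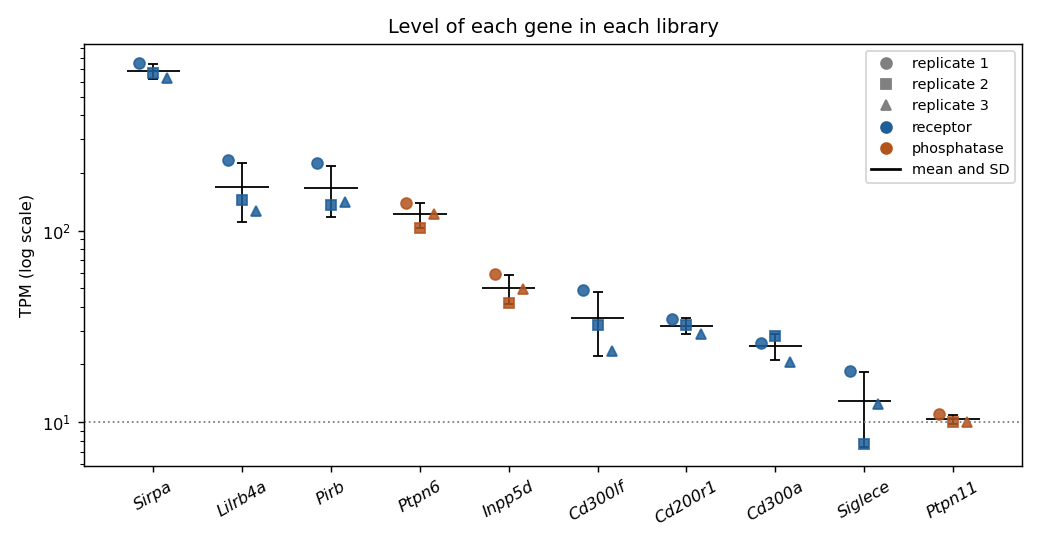
TPM of each of the 10 genes on a log axis, with 1 point per library (circle, square and triangle for replicates 1, 2 and 3), the mean as a horizontal line, the SD as a bar and a dotted line at 10 TPM. Sirpa, at 628 to 749 TPM, stands above all the others, and Siglece and Ptpn11 straddle the dotted line.

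In the order of levels, Pirb also overlapped Ptpn6, Inpp5d overlapped Cd300lf, and Siglece overlapped Ptpn11. Within every library Pirb nevertheless lay above Ptpn6, and Inpp5d above Cd300lf. Some of these overlaps depended on scaling. The part of TPM that went to nuclear-encoded protein-coding genes was 34.3%, 27.8% and 27.8% in replicates 1, 2 and 3. After rescaling to those genes alone Pirb no longer overlapped Ptpn6 and Inpp5d no longer overlapped Cd300lf, whereas Siglece still overlapped Ptpn11. In all, 8 of the 10 genes reached 10 TPM in every library, against 17.3% of nuclear-encoded protein-coding genes, and all 10 reached 1 TPM. Siglece missed the 10 TPM minimum in replicate 2 and Ptpn11 in replicate 3. After the rescaling all 10 passed it, and in the authors' second quantification (estimated counts made directly from the reads) 5 passed. There nuclear-encoded protein-coding genes held only 24.3%, 10.1% and 8.15% of TPM in replicates 1, 2 and 3. With the second quantification rescaled to those genes, all 10 passed.

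Ratios within a library do not depend on how the library was scaled. Ptpn6 exceeded Ptpn11 by 12.7-fold, 10.3-fold and 12.2-fold in replicates 1, 2 and 3, a mean log2 ratio of 3.55 ± 0.16 (SD, n = 3). Inpp5d exceeded Inppl1, which encodes the related phosphatase SHIP-2, by 2.53-fold, 2.54-fold and 2.75-fold (log2 ratio 1.38 ± 0.07). Both ratios had the same direction in every library. Sirpa exceeded Cd47, the gene of its own ligand, by 3.19-fold, 5.04-fold and 4.19-fold (log2 ratio 2.02 ± 0.33). Cd200r1 exceeded Cd200 by 13.7-fold, 19.2-fold and 17.2-fold (log2 ratio 4.05 ± 0.25). Receptor RNA was thus more abundant than RNA of the paired ligand gene in every library for both pairs. In RNA of a whole culture, a gene carried by fewer cells and a gene with less RNA per cell cannot be told apart.

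All 10 genes varied between libraries by more than counting error, as did 71.4% of the 12515 genes tested, and nothing particular to the members is read from it (chi-square test of counts against a single rate, Benjamini-Hochberg adjusted over all genes tested). The statistic per degree of freedom ran between 8.44 for Ptpn11 (adjusted p = 0.00042) and 2243 for Lilrb4a. The biological coefficient of variation (BCV) estimates the spread between libraries beyond counting error. The BCVs here are edgeR's tagwise estimates, which are drawn toward the trend over all genes and are not each gene's own observed spread. The median BCV was 0.164 for the members and 0.172 for all genes tested. Without replicate 1 it was 0.102 for the members and 0.105 for all genes. The test then called 9 of the 10 members and 40.4% of the genes tested, and Ptpn11 did not pass it (adjusted p = 0.304). Without replicate 2 it called 7 of the 10 members and 58.2% of the genes tested, and Sirpa (adjusted p = 0.769), Inpp5d (adjusted p = 0.119) and Cd200r1 (adjusted p = 0.923) did not pass.

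Some members were steadier than others when libraries were compared on CPM, counts scaled to library size with TMM factors. Sirpa had 3264, 3452 and 3242 CPM in replicates 1, 2 and 3, so that its highest library exceeded its lowest by 1.06-fold. Cd200r1 (1.09-fold), Ptpn11 (1.10-fold) and Inpp5d (1.10-fold) were as steady, and Ptpn6 (1.22-fold), Pirb (1.33-fold) and Cd300a (1.37-fold) moved somewhat more. Lilrb4a had 529, 300.3 and 266 CPM, Cd300lf had 122, 82.1 and 61.0 CPM, and Siglece had 42.7, 21.1 and 35.2 CPM. The highest library of each of these 3 genes exceeded the lowest by about the same factor, 1.99-fold, 2.00-fold and 2.02-fold. Replicate 1 was the highest library for all 3, and for 5 of the 10 members against 40.3% of the genes tested. The BCVs of Lilrb4a (0.270), Siglece (0.250) and Cd300lf (0.244) exceeded those of 72.0%, 69.1% and 68.2% of genes tested, and those of Cd200r1 and Ptpn11, both 0.118, exceeded 5.002% and 4.95%. The BCV of Sirpa, 0.164, exceeded 45.8% although its CPM moved only 1.06-fold. As moderated estimates, these BCVs do not rank the observed spread of each gene.

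**Figure D3:**
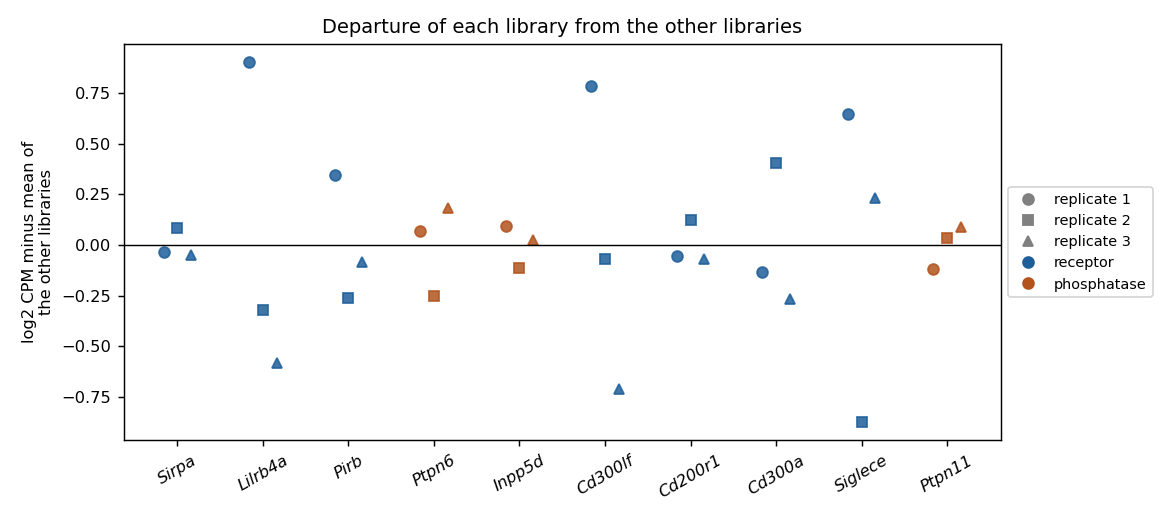
Log2 CPM of each gene in each library minus the mean of the other libraries, with circles, squares and triangles for replicates 1, 2 and 3. Lilrb4a and Cd300lf stand 0.90 and 0.78 above the other libraries in replicate 1, and Siglece stands 0.88 below them in replicate 2, while the points of Sirpa, Cd200r1 and Ptpn11 lie close to 0.

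The libraries held 31968675, 53094481 and 57070432 expected counts on genes in replicates 1, 2 and 3. Replicate 1 also had the most of the RNAs Malat1 and Neat1, which are known to stay in the nucleus, with 1333, 118 and 152 TPM for Malat1 and 66.0, 13.9 and 17.6 TPM for Neat1. All 6 macrophage markers reached 10 TPM in every library, with a summed level of 4175 to 4889 TPM. Of 6 neutrophil markers S100a8 and S100a9 were above 1 TPM (summed level of the list 7.09 to 11.1 TPM, with Ly6g and Retnlg at 0 counts). None of the 6 T and NK cell, 4 B cell, 4 mast cell and basophil, 4 platelet and megakaryocyte or 4 dendritic cell markers reached 1 TPM, and the summed level of each of these lists was at most 0.3 TPM in any library. Among them Cd3e, Nkg7, Klrb1c, Trac, Mcpt4, Gp9, Gp1bb and Cd209a had 0 counts.

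Much of the RNA assigned to Lilrb4a and Pirb was placed on transcripts that are not annotated as protein coding. Over the libraries the protein-coding class held 13.2% ± 10.7 of the TPM of Lilrb4a and 27.7% ± 11.5 of that of Pirb (SD, n = 3). A share under 50% was seen in 4.58% of protein-coding genes of at least 10 TPM. In the other 8 members the protein-coding class held 70.5% (Inpp5d) to 100% (Siglece) of TPM. These shares are estimates of the authors' quantification, which divides reads among overlapping transcripts. Most of the protein-coding share of Lilrb4a lay on Lilrb4a-202, which encodes 240 residues and held 0.64%, 17.25% and 20.6% in replicates 1, 2 and 3. In the second quantification the protein-coding class held only 1.59% ± 0.652 of Lilrb4a TPM and 4.16% ± 0.395 of Pirb TPM.

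For Lilrb4a the leading transcript was Lilrb4a-205, annotated as a target of nonsense-mediated decay, with 50.7%, 71.8% and 68.7% of the gene's TPM in replicates 1, 2 and 3. It has 5 more bases at the end of exon 1 than the complete coding transcript Lilrb4a-201 (chr10:51491052-51491056, plus strand). They shift the reading frame, so that its annotated coding sequence ends after 39 residues instead of 335. The added bases, shown in capitals with 12 bases on either side, begin with the letters GT, which usually start an intron.
Lilrb4a-205: tgctataccttgGTGAGgtcttattctgg

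The complete coding transcript Lilrb4a-201 was listed at 0 in every library. Its protein was not missing from the annotation's other entries. Gm49339 (chr10:51480612-51496613), a protein-coding entry on the same strand that covers all of Lilrb4a and is tagged as a read-through, has a leading transcript, Gm49339-203, whose translation is identical to that of Lilrb4a-201 over all 335 residues. The transcripts share 1326 bases of the 1381 of Lilrb4a-201 and differ in their first exon. Gm49339 stood at 208, 152 and 161 TPM in replicates 1, 2 and 3 (174 ± 30.2 TPM, n = 3), and Gm49339-203 held 97.8%, 96.9% and 97.6% of it. The entries together had 443, 296 and 288 TPM (342 ± 87.4 TPM). Counts of Lilrb4a were not whole numbers, a sign of reads divided between entries, so the division between Lilrb4a and Gm49339 is uncertain, and the level of Lilrb4a alone leaves out RNA listed under Gm49339 that encodes the same protein.

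The higher level of Lilrb4a in replicate 1 lay in its retained-intron transcripts. These held 48.3%, 10.6% and 10.4% of the gene's TPM in replicates 1, 2 and 3, which is 113, 15.2 and 13.2 TPM. All other Lilrb4a transcripts together had 121, 129 and 113 TPM, so that outside this class the highest library exceeded the lowest by 1.14-fold instead of 1.86-fold. On CPM the retained-intron class had 326, 51.9 and 46.7 and the rest 203, 248 and 219, and replicate 1 was the lowest library for the rest. Pirb, also highest in replicate 1, had 191, 91.1 and 90.5 TPM in its retained-intron class and 32.8, 44.2 and 50.9 TPM outside it. Replicate 1 was thus the lowest library of Pirb outside this class too, and there the spread did not shrink: on CPM it was 1.89-fold, against 1.33-fold for the whole gene. In the second quantification the retained-intron share of Lilrb4a was again highest in replicate 1 (58.3%, 16.6% and 16.7% in replicates 1, 2 and 3). That of Pirb was lowest there (95.4%, 96.0% and 96.1%), so the replicate 1 pattern of Pirb depended on the tool. Retained-intron shares were highest in replicate 1 in 85.2% of 2501 genes of at least 10 TPM that list such transcripts, and in 4 of the 5 members among them. The higher Malat1 and Neat1 of replicate 1 moved with this result, and their part in it was not tested.

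Pirb had an average of 72.3% ± 11.5 of its TPM on retained-intron transcripts, with 85.4%, 67.4% and 64.0% in replicates 1, 2 and 3. A mean share over 50% was seen in 1.8% of the 2501 genes. The leading transcript, Pirb-202, held 55.3%, 44.0% and 42.3%. It keeps an intron of 227 bases (chr7:3716891-3717117) and ends 1128 bases short of the coding transcript Pirb-201, which held 14.6%, 32.6% and 36.0%. The bases of the tail motifs were nevertheless present, with 98.8% ± 0.292 of Pirb TPM on transcripts that contain all 3 ITIM sequences shown above. This counts bases only: the retained intron lies ahead of the tail, its length does not keep the reading frame, and the transcripts that keep it are not annotated as coding. In the second quantification the retained-intron class took 95.8% ± 0.395 of Pirb TPM, so its size depends on the tool, while its lead over the coding class held in every library of both. Pirb, Cd300a, Cd300lf and Ptpn6 also had counts that were not whole, while those of the other 5 members were whole to within 0.005 in every library.

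**Figure D4:**
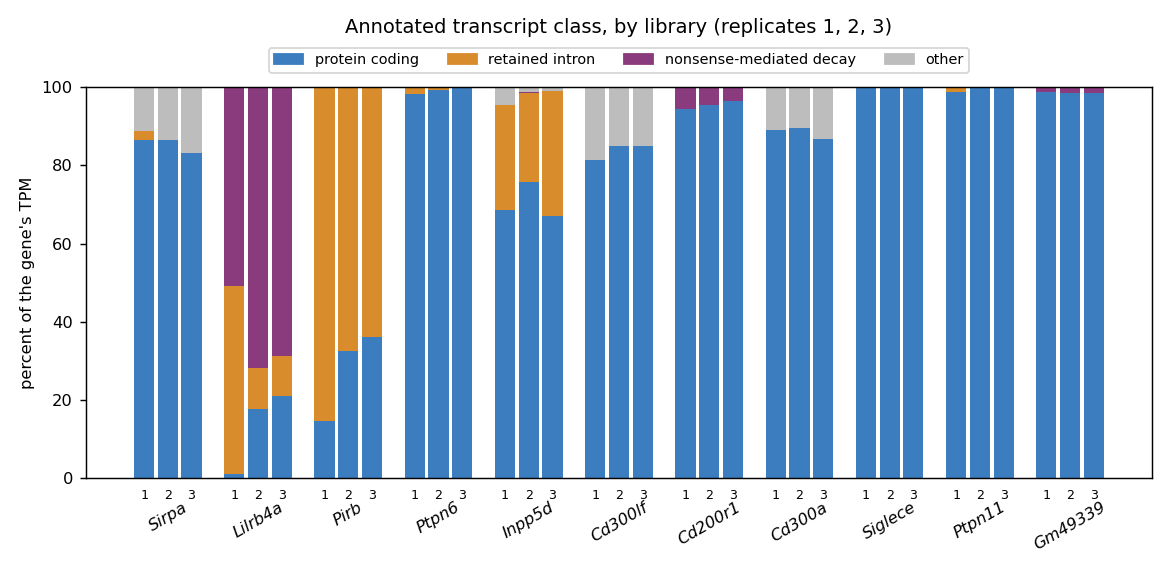
Share of each gene's TPM on transcripts annotated as protein coding, retained intron, nonsense-mediated decay or other, as stacked bars for replicates 1, 2 and 3 of each gene. Lilrb4a and Pirb are the only members with less than 50% in the protein-coding class in every library, and the Gm49339 entry that covers Lilrb4a is at least 98.4% protein coding.

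The tail motifs were carried by most of the RNA of the other receptors. Transcripts that contain every tail motif of the gene held 100% of Cd200r1 TPM, 96.7% ± 1.10 of Siglece, 88.5% ± 1.502 of Cd300a, 85.3% ± 1.98 of Sirpa and 83.7% ± 2.09 of Cd300lf TPM (n = 3). These shares count bases only, and that of Cd200r1 includes nonsense-mediated decay entries with 4.56% of its TPM. For Lilrb4a the share was 86.1%, 99.6% and 99.2% in replicates 1, 2 and 3, which counts bases and disregards the frame shift of Lilrb4a-205. Much of the remainder came from short noncoding entries, such as a processed transcript of 400 bases that held 13.3% of Sirpa TPM but 611, 1453 and 1681 counts, against 36962, 111201 and 123376 counts for the leading Sirpa-214.

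Several members used small alternative segments in their coding sequence, and the balance between the versions was steady for some and loose for others. Each share here is of the TPM of those transcripts of the gene that contain either version. Sirpa has a 12-base segment ahead of its first tail ITIM (chr2:129627986-129627997, after residue 424), which was included in 16.4%, 16.3% and 16.1% of TPM in replicates 1, 2 and 3. In Cd300a a 12-base segment ahead of the membrane segment (chr11:114894658-114894669) was included in 90.3%, 91.1% and 91.1%. Inclusion thus differed between these genes but hardly between libraries. Cd300lf had a 21-base segment (chr11:115124357-115124377, minus strand) at 45.2%, 51.3% and 54.9%. Ptpn11 had a 12-base segment within the stretch that encodes the phosphatase domain (chr5:121144685-121144696, minus strand) at 28.8%, 38.9% and 31.0%. The segments, each in capitals with 12 bases on either side, are shown in the direction of the transcript because they set apart the proteins that these genes encode.
Sirpa-201: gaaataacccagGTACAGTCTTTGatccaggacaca
Cd300a-202: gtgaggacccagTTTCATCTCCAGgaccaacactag
Cd300lf-202: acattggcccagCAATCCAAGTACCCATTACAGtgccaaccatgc
Ptpn11-201: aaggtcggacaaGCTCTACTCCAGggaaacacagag

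These 4 segments have a length that keeps the reading frame. The leading Sirpa transcripts, Sirpa-214 (29.95%, 49.9% and 52.9% in replicates 1, 2 and 3) and Sirpa-204 (39.2%, 19.7% and 14.2%), both encode 509 residues, so the exchange between them left the encoded length as it was. The coding transcripts of Cd300lf encode 337, 330 and 296 residues, and Cd300lf-203, which encodes the shortest, led with 42.0%, 36.1% and 46.1%. In the second quantification Cd300lf-203 held 29.8%, 25.9% and 36.1% and lay below Cd300lf-201 (30.4%) and Cd300lf-202 (26.7%) in replicate 2. Siglece-201 held 96.7% ± 1.08 of its gene's TPM, Cd200r1-201 95.4% ± 1.10, Ptpn6-202 92.8% ± 1.53 and Cd300a-202 80.4% ± 1.29 (n = 3).

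Ptpn6 is known to have a downstream start used in blood cells and an upstream start used mainly in epithelial cells, and the downstream start prevailed here. Transcripts with the downstream first exon held 94.2%, 91.0% and 93.6% of Ptpn6 TPM in replicates 1, 2 and 3, a mean of 92.9% ± 1.71 (n = 3). Transcripts with the upstream first exon, which starts 5430 to 5560 bases further upstream, held 3.88%, 4.87% and 3.75% (4.17% ± 0.612). In the second quantification the downstream share was 70.3% in replicate 1 and 94.3% and 95.8% in replicates 2 and 3. The upstream share there was 3.40%, 5.15% and 3.72%, so it did not rise in replicate 1. A retained-intron entry of 421 bases with neither first exon held 17.2% in replicate 1. The starts of the coding sequences differ, as shown here with the first codon in capitals.
Ptpn6-202 (downstream): ATGgtgaggtggtttcaccgggac
Ptpn6-201 (upstream): ATGttgtcccgcgggtggtttcac

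Inpp5d RNA was divided among forms of different length. Inpp5d-210, which encodes all 1191 residues, had the highest mean share, with 37.1%, 37.7% and 32.00% of TPM in replicates 1, 2 and 3. A retained-intron entry of 364 bases, Inpp5d-203, held 26.9%, 22.8% and 32.03% of TPM, level with Inpp5d-210 in replicate 3, but only 1.18% ± 0.186 of the gene's counts (n = 3), since TPM weights short entries. Among the complete coding transcripts, those that start inside the gene at position 87676239 and lack the first 263 residues held 32.0%, 38.5% and 39.6% of TPM. The second quantification put that share at 15.4%, 11.4% and 7.83%, so the size of the short form was not settled. A 183-base segment that follows residue 919, next to the first NPXY tyrosine, was included in 71.1%, 78.2% and 76.9%.

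As a list, other ITIM receptors had a lower median than the 7 receptors described, but not all of them were lower. Of 17 such genes 6 reached 10 TPM in every library, with a median of 5.89 TPM. Of the 7 receptors described 6 did, with a median of 34.9 TPM. Among the 17 genes, the lowest mean of the 6 was 41.9 TPM, above the means of Cd300lf, Cd200r1, Cd300a and Siglece. The contrast of medians thus depends on which genes were listed. The median was 42.5 TPM for all 10 members and 0.16 TPM for all nuclear-encoded protein-coding genes. The inhibitory Fc receptor gene Fcgr2b was highest at 118 ± 43.6 TPM (n = 3), followed by Clec12a at 77.7 ± 7.92 and Milr1 at 61.5 ± 12.2 TPM. Klrg1, Pdcd1 and Tigit, known from lymphocytes, were at 0 counts throughout, a depth at which 0.0554, 0.0385 and 0.0958 TPM could have gone unseen (3 counts, counting error only).

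Activating receptors of the same families and their adaptors included 9 of 17 genes at 10 TPM or more in every library. The adaptor genes Fcer1g and Tyrobp, whose products carry the activating counterpart of the ITIM, led at 1424 ± 253 and 649 ± 61.9 TPM (n = 3), then Clec4a3 at 154 ± 39.3 TPM. Fcer1g thus lay above Sirpa in every library, and Tyrobp below Sirpa in every library, although the ranges of Tyrobp and Sirpa over the libraries overlapped. Cd200r3 (0.12 ± 0.0624 TPM) and Lilra5 (0.01 ± 0 TPM) were lowest. A further 3 listed symbols, among them Lilrb4b, were not matched, have no value under those symbols and lie outside this order. The annotation holds a gene under the similar symbol Lilr4b, which had 664, 422 and 374 CPM in replicates 1, 2 and 3. On CPM it lay above Lilrb4a in every library, and replicate 1 was its highest library.

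Ligand genes spanned the widest range. The histocompatibility genes B2m, H2-K1 and H2-D1, whose products are ligands of the Pirb receptor, stood at 3772 ± 762, 2398 ± 370.4 and 1702 ± 92.8 TPM (n = 3). Cd47 had 235, 132 and 150.0 TPM in replicates 1, 2 and 3 and Cd200 had 2.53, 1.66 and 1.68 TPM. The surfactant genes Sftpa1 and Sftpd, whose products are made mainly in lung, were at 0 counts, so that levels up to 0.0403 and 0.0499 TPM could have gone unseen. In all 5 of 9 ligand genes reached 10 TPM in every library.

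Kinases that phosphorylate ITIMs were present along with their regulators. Of 11 genes 6 reached 10 TPM in every library. The phosphatase gene Ptprc, which encodes CD45, stood at 112 ± 39.0 TPM and the Src-family kinase gene Lyn at 88.5 ± 35.4 TPM (n = 3). Fgr and the T cell kinase gene Lck were lowest at 0.497 ± 0.0907 and 0.137 ± 0.0929 TPM. Replicate 1 was the highest library for both Ptprc and Lyn.

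Among 12 docking proteins and partners of the phosphatases, 9 reached 10 TPM in every library. The adaptor genes Fyb (289 ± 69.8 TPM), Grb2 (161 ± 31.3 TPM) and Skap2 (50.6 ± 10.6 TPM) led, and Gab3 (3.95 ± 0.553 TPM) and Gab1 (0.93 ± 0.184 TPM) were lowest (n = 3). Of 14 other phosphatases of tyrosine or inositol phosphates, 8 reached the minimum, led by Ptpn18 (42.9 ± 5.65 TPM), Ptpra (37.3 ± 4.39 TPM) and Ptpn1 (32.8 ± 3.71 TPM), with Inpp5e (3.08 ± 0.368 TPM) and Inpp5a (2.28 ± 0.287 TPM) lowest. In every library Ptpn6 lay above each of these 14 genes and Ptpn11 below Ptpn18, Ptpra and Ptpn1. Inppl1 had 23.4, 16.5 and 18.0 TPM in replicates 1, 2 and 3.

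**Figure D5:**
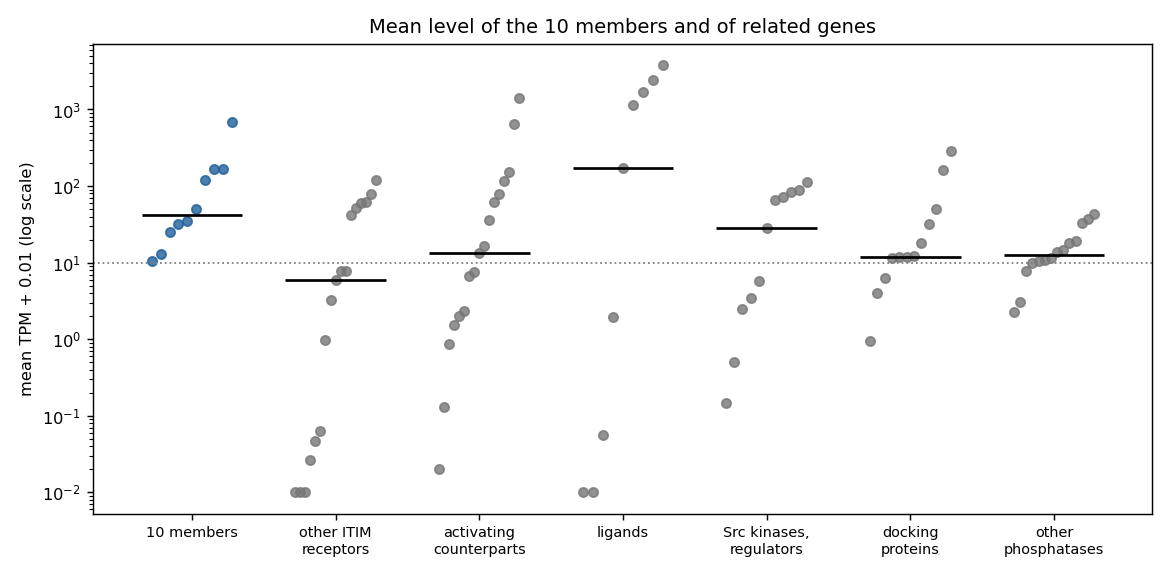
Mean TPM over the 3 libraries, with 0.01 added so that genes at 0 can be drawn on a log axis, for the 10 members (blue) and for the related gene lists (grey), with 1 point per gene, the median as a line and a dotted line at 10 TPM. The members, with a median of 42.5 TPM, hold no gene below 10.3 TPM, whereas the other ITIM receptors extend down to 0.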

How the data were processed

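Cytosolic, ribosomal RNA-depleted RNA was measured in 3 libraries of 1 group. The authors deposited expected counts and TPM per gene and per transcript with column names of RSEM, quantified on mm10 with GENCODE M21 per the notes beside the files. Each transcript's share of its gene is a deposited percent of TPM. A second transcript table gave estimated counts and TPM under the column names of kallisto. Tool versions and the strand setting were not given in the sources used here, and antisense reads cannot be told apart. The annotated opposite-strand neighbours of the members had at most 0.42 TPM. The labels call the libraries biological replicates but give 1 donor identifier, so p-values measure only the spread between these libraries, which may be technical.

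Genes were matched by identifier. The members and lists were chosen with earlier results of these data known. Named genes are all members, the 3 highest and 2 lowest of each list, and ratio partners. Named transcripts come from the leading ones and those with a mean share of at least 10%, and not every such transcript is named. Transcripts outside this rule (Lilrb4a-201, the transcripts of Gm49339 and the alternative segments and starts) were chosen after their values were seen. Malat1, Neat1 and Lilr4b were also named after their values were seen. A gene that the rule would name is not reported here. Markers at 0 are named for every marker list.

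Expected counts were rounded to whole numbers and tested with a chi-square test per gene on library sizes scaled by TMM (R 4.3.3 and edgeR 4.0.16, whose filter on low counts all 10 members passed, and Benjamini-Hochberg adjustment at a threshold of 0.05). BCVs are moderated tagwise values from edgeR's intercept-only fit, and log2 CPM used a prior count of 2. The test was checked on simulated counts whose unchanged genes varied by counting error only, a narrower spread than that of these libraries. Entries that name no gene held 0.435%, 0.134% and 0.0823% of counts in replicates 1, 2 and 3 and stayed out. A level allowed at 0 counts is that of 3 counts. A membrane segment was placed from the last 19-residue window after residue 30 with a mean Kyte-Doolittle hydropathy of at least 1.6. It is the most hydropathic of that window and those starting up to 10 residues before it. Alternatives were the second quantification, other scalings, filters, minimums and pseudocounts, DESeq2 1.42.0 size factors, and leaving out each library.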

Additional observations from a re-analysis of the deposited data

How the results depend on the processing

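No paired analysis was possible because the 3 libraries form a single group. The median of the members, taken in each library and then averaged, was 43.4 TPM, against 21.2 TPM in the second quantification, 144 TPM after rescaling to nuclear-encoded protein-coding genes and 140.4 TPM after both. The number of members at 10 TPM or more, 8 of 10, was 5 in the second quantification and 8 to 10 under the other minimums, the rescalings and without each library. With the second quantification rescaled, all 10 members kept their rank in the order of mean levels except that Pirb and Lilrb4a exchanged places. Within replicate 2 Cd300a then lay above Cd200r1, at 118 against 112 TPM. The median BCV of the members, 0.164, was 0.163 with DESeq2 size factors, 0.165 with library totals, 0.150 with no filter on low counts, and 0.102 to 0.198 without each library in turn. The log2 ratio of Cd200r1 over Cd200, 4.05, was 3.48 with a pseudocount of 1. Every one of the 4 ratios kept its direction under all alternatives run, and 10 members varied beyond counting error under every alternative that kept all libraries, as did 53.9% (no filter on low counts) to 76.8% (second quantification) of genes tested. Of the single-gene levels and transcript shares, 16 of 20 moved by more than 1 SD in the second quantification and none when a library was left out. Leaving out retained-intron transcripts lowered Pirb to 42.6 TPM and Inpp5d to 36.4 TPM and moved the other 8 members by less than 1 SD. The rescalings, the sum with Gm49339 and the omission of retained introns were chosen after seeing the data. The cause of these shifts was not tested. With 1 group and 3 libraries no effect of Lipid A can be estimated.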
